A study of Mus musculus with 6 samples.

Results

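The lysosomal genes described here are 34 genes for hydrolases of the lysosome, the proteins of its membrane, its master transcription factor and its proton pump, measured in the epididymal fat of Jmjd8-KO and wild-type (WT) mice. They were taken by symbol from a table of 24539 genes, and all 34 were listed and passed the filter on low counts. By role they are 5 cysteine cathepsins, 3 other peptidases and 9 glycosidases and sulfamidases. A further 6 are grouped as lipid hydrolases, activators and cholesterol export. The rest are 6 genes for membrane proteins and TFEB, and 5 parts of the vacuolar ATPase. The samples were 3 Jmjd8-KO and 3 WT mice of strain C57BL/6, every one kept on a high-fat diet (HFD) and given no other treatment. The sources used here do not give the age of the mice, their time on the diet, the knockout allele or any Cre driver.

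The lysosome is an acidic compartment in which proteins, glycans and lipids are cut to their building blocks. The vacuolar ATPase pumps protons into it, and most of its hydrolases work only at that low pH. In obese fat, macrophages that take up lipid from adipocytes are rich in lysosomes, while adipocytes and every other cell of the tissue also carry them. The transcription factor TFEB drives many lysosomal genes through a short E-box in their promoters.

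Total counts lay between 17598696 and 20598473 per library, so counting error was small for these genes and the spread between mice set the precision. Jmjd8 itself was at 39.4, 57.7 and 42.3 CPM (counts scaled to library size with TMM factors) in Jmjd8-KO replicates 1, 2 and 3 and at 112, 116 and 111 CPM in the WT mice. Jmjd8-KO replicate 2 and WT replicate 1 stood apart from their groups. WT replicate 1 carried neuronal transcripts, whose source was not tested. Their summed level over 12 neuronal markers was 939.4 CPM, against 16.3 to 25.3 CPM in the other 5 libraries. For counts over genes, chi-square divided by its degrees of freedom came to 46 and 42.9 for the pairs with Jmjd8-KO replicate 2, and to 2.97 for the remaining knockout pair. The same quantity was 23.6 and 21.7 for the pairs with WT replicate 1 and 4.04 for the remaining WT pair.

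Most of the 34 genes had lower values in Jmjd8-KO fat, by small amounts, and 1 passed the test. Cathepsin K (Ctsk) fell, 0 genes rose and 33 did not pass. At an adjusted p under 0.05 (edgeR) 1.33% of all 14322 tested genes fell and 0.789% rose, 2.12% in both directions together. The log2 fold change, Jmjd8-KO minus WT, was negative for 29 and positive for 5, with a median of -0.16 against -0.01 over all tested genes. It ran from -0.85 for Ctsk to 0.25 for the glycogen-degrading enzyme Gaa. For 23 of 34 genes (67.6%) it was smaller than a 1.2-fold difference in either direction, a share close to the 66.3% of all tested genes. The 3 Jmjd8-KO values lay below all 3 WT values in 15 of 34 genes (44.1%), against 15.5% of all tested genes, and above them in 1, Gaa, against 14.0%. At an unadjusted p under 0.05 there were 12 lower and 1 higher, where all tested genes gave 10.1% lower and 8.99% higher. In bulk tissue, fewer cells of a type and less RNA per cell cannot be told apart.

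The number that passed turned on single mice. Without Jmjd8-KO replicate 2, 11 of the 34 genes fell and 1 rose, where 4.82% of all tested genes fell and 4.52% rose. Without any 1 of the other 5 mice, 0 genes passed by edgeR, in fits where between 0 and 17 genes passed in all. With all 6 mice DESeq2 called 10 lower and 1 higher, where it called 3.74% of tested genes lower and 3.51% higher. Limma-voom with quality weights called 14 lower and 1 higher, against 7.21% and 6.97% of tested genes, and edgeR with library size alone 3 lower and 0 higher, against 2.01% and 0.587%. Without both libraries that stood apart, 16 fell and 1 rose, where 9.72% of tested genes fell and 10.1% rose.

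**Figure D1:**
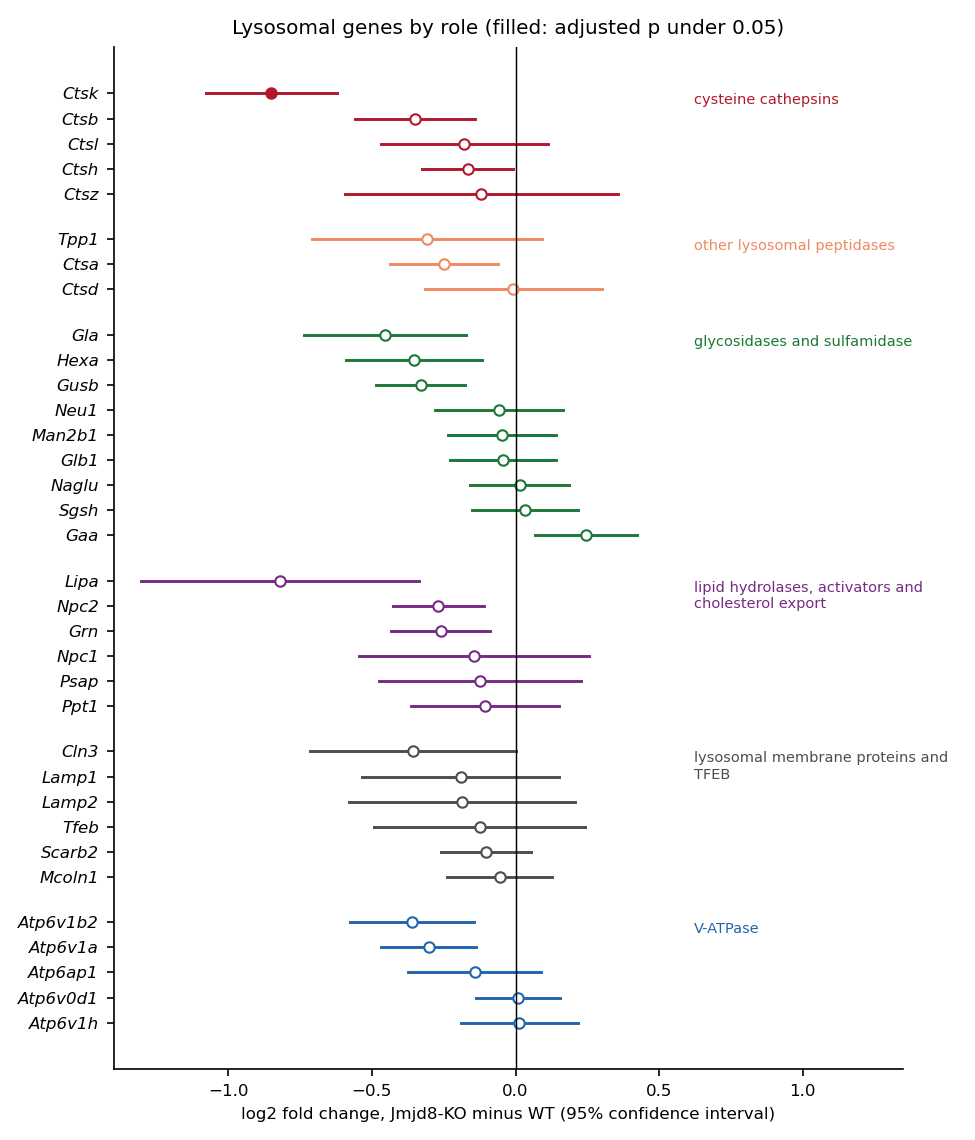
Log2 fold change (Jmjd8-KO minus WT, edgeR, 3 mice per group) of each of the 34 genes with its 95% confidence interval, grouped by role and colour; filled points passed at an adjusted p under 0.05. Ctsk, at -0.85, is the 1 filled point, and Gaa, at 0.25, lies farthest to the right.

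The promoters of 29 of the 34 genes were in the RefSeq table of sequences from 250 bases before to 50 bases after each start (GRCm38.p6); Ctsb, Ctsh, Npc1, Atp6v1h and Atp6v1b2 were not matched. The E-box CACGTG, a palindrome and the core of the TFEB-binding element, was present in 13 of the 29 genes (44.8%). It was present in 8.09% of all 27025 genes with a promoter there. With a T before it or an A after it, that is TCACGTG on either strand, it was found in 12 of the 29 genes (41.4%), and in 4.29% of all genes with a promoter there. The log2 fold changes of the 13 genes with the E-box ran from -0.45 to 0.25 with a median of -0.06. Those of the 16 genes without it ran from -0.85 to -0.05 with a median of -0.16. The stretches below lie upstream of the RefSeq start on the gene's own strand, which for Atp6v1a is inside the span that GENCODE gives the gene. They are shown because Ctsk and Lipa had the lowest log2 fold changes and no CACGTG in the whole window, and because Gaa, Gla, Lamp1 and Atp6v1a stand for the glycosidases at each end of the range, the membrane proteins and the pump. Capitals mark CACGTG.
Ctsk, plus strand, chr3:95499090-95499209: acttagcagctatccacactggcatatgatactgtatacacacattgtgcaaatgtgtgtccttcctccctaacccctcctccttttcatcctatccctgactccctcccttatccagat
Lipa, minus strand, chr19:34527475-34527594: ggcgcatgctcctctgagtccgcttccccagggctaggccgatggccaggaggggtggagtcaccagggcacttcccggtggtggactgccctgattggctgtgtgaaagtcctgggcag
Gaa, plus strand, chr11:119267801-119267850: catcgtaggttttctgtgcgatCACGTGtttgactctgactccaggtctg
Gla, minus strand, chrX:134601205-134601254: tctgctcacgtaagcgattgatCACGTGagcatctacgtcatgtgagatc
Lamp1, plus strand, chr8:13159078-13159127: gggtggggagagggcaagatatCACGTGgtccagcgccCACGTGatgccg
Atp6v1a, minus strand, chr16:44139363-44139412: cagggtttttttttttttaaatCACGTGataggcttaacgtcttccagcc
Lamp1 held the E-box in 2 copies within this stretch, and Gaa and Gla, with 1 each, had log2 fold changes of opposite sign. A match is a description of the letters, and TFEB binding was not measured.

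The cysteine cathepsins are proteases with a cysteine in the active site, and all 5 had lower mean levels in Jmjd8-KO fat, with 1 that passed. Ctsk, a collagen-cleaving protease best known from osteoclasts, was at 52.6, 47.1 and 57.1 CPM in the Jmjd8-KO mice and 98.2, 86.8 and 97.7 CPM in the WT mice. The groups did not overlap, and the highest Jmjd8-KO mouse stood well under the lowest WT mouse. Ctsk fell 1.80-fold, from 94.2 ± 6.44 to 52.2 ± 5.004 CPM (SD, n = 3 each; log2 fold change -0.85, SE 0.097, adjusted p = 0.0193). Its log2 fold change lay between -0.93 and -0.75 over 14 alternative settings, and its adjusted p rose above the threshold when any mouse other than Jmjd8-KO replicate 2 was left out, to between 0.0638 and 0.142. In GRCm38 Ctsk spans chromosome 3, 95499256 to 95509362, plus strand.

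Ctsb, cathepsin B, was the most abundant of the 5 per gene length, at 715 ± 65.7 RPKM in Jmjd8-KO and 954 ± 25.4 RPKM in WT. Its counts gave 3844, 3387 and 4020 CPM in the Jmjd8-KO mice and 4754, 4708 and 4886 CPM in the WT mice. Every Jmjd8-KO mouse was below every WT mouse, and the difference did not pass (log2 fold change -0.35, SE 0.0882, adjusted p = 0.0987). Ctsh, an aminopeptidase of this family, had a log2 fold change of -0.17 and likewise no overlap between the groups.

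Ctsz and Ctsl differed in another way, since Jmjd8-KO replicate 2 was the highest of all 6 mice for both. Ctsz, a carboxypeptidase, was at 273, 474 and 297 CPM in Jmjd8-KO and 385, 362 and 387 CPM in WT. Its log2 fold change was -0.12 (95% confidence interval -0.59 to 0.36), and without Jmjd8-KO replicate 2 it fell (-0.41, adjusted p = 0.0148). Ctsl, an endopeptidase, went from -0.18 (adjusted p = 0.464) to -0.33 (adjusted p = 0.0206) when that mouse was left out. Neither Ctsz nor Ctsl passed when any other single mouse was left out. Summed over the 5 genes, cysteine cathepsin transcripts came to 5204, 5222 and 5389 CPM in Jmjd8-KO and 6515, 6396 and 6657 CPM in WT. Ctsb, which did not pass, made up most of each sum.

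The 3 other peptidases did not pass. Ctsd, the aspartic protease cathepsin D, had the highest level per gene length of all 34 genes, at 1785 ± 321 RPKM in Jmjd8-KO and 1879 ± 24.4 RPKM in WT. It was at 3400, 4676 and 3501 CPM in the Jmjd8-KO mice and between 3880 and 3883 CPM in all 3 WT mice. A single mouse, Jmjd8-KO replicate 2, stood above the WT mice and the others below, and the log2 fold change was -0.01 (95% confidence interval -0.32 to 0.30). Without that mouse it was -0.17 (adjusted p = 0.171). In the annotation 34.4% of the exon bases of Ctsd are shared with a second gene model on the same strand, Gm49369, so its count may depend on how such reads were treated.

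Ctsa, a serine carboxypeptidase that also protects beta-galactosidase and neuraminidase, was at 519, 588 and 545 CPM in Jmjd8-KO and 668, 623 and 672 CPM in WT. The groups did not overlap and the difference did not pass (log2 fold change -0.25, SE 0.0799, adjusted p = 0.164). Tpp1, a tripeptidyl peptidase lost in a childhood neuronal storage disease, was at 254, 168 and 271 CPM against 281, 286 and 291 CPM. Its log2 fold change of -0.31 rested largely on Jmjd8-KO replicate 2 and was -0.12 without it.

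**Figure D2:**
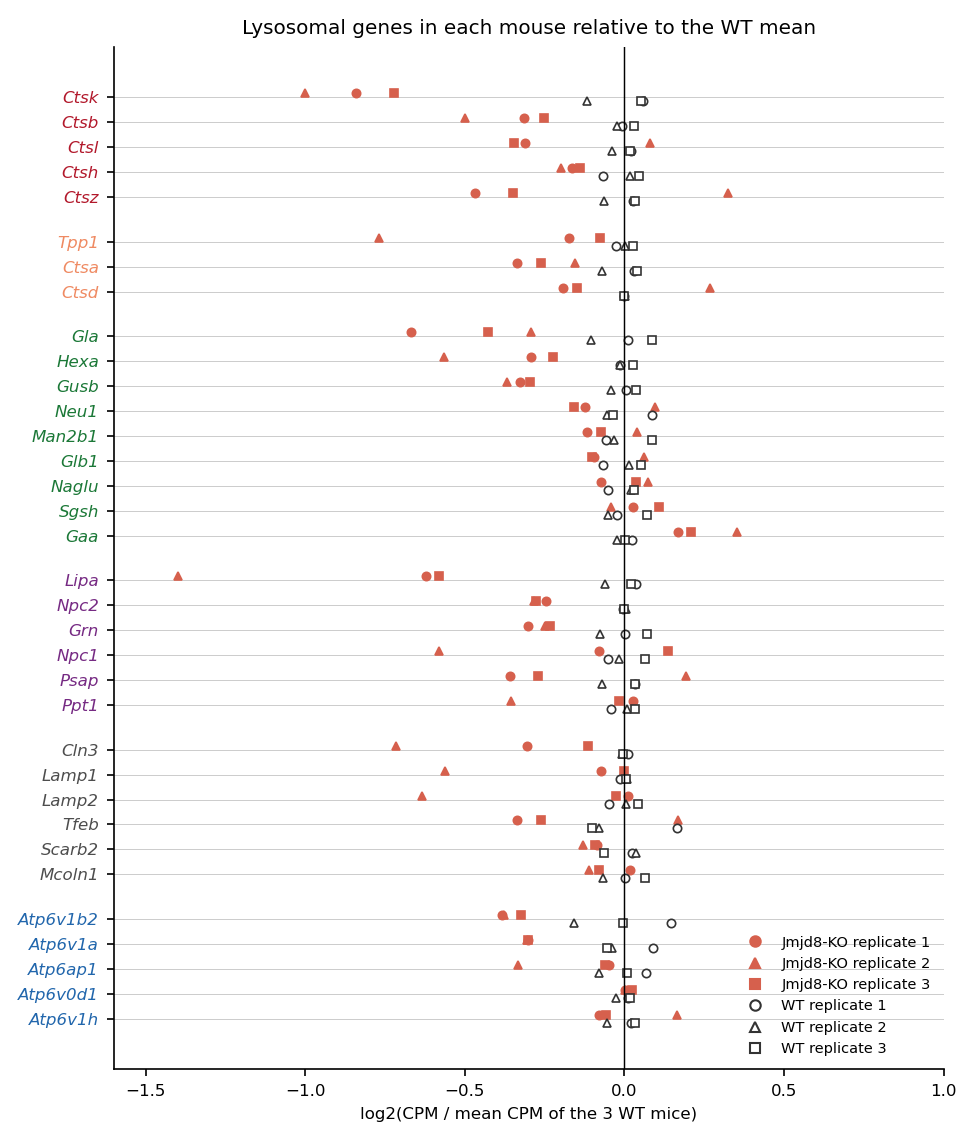
Log2 of each mouse's CPM over the mean CPM of the 3 WT mice for the 34 genes, with filled symbols for Jmjd8-KO and open symbols for WT, and a shape for each replicate number. The triangles of Jmjd8-KO replicate 2 lie far from the other filled symbols for Lipa, Tpp1, Lamp1 and Lamp2 on the low side and for Ctsz, Ctsd and Psap on the high side.

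The glycosidases remove sugars from glycoproteins, glycolipids and glycogen. Of the 9 genes of this group, which includes the heparan sulfamidase Sgsh, 6 had negative and 3 positive log2 fold changes, and 0 passed. Gusb, beta-glucuronidase, came closest, at 164, 159 and 168 CPM in Jmjd8-KO and 206, 199.7 and 211 CPM in WT. The groups were apart and the spread within each was small (log2 fold change -0.33, SE 0.0655, adjusted p = 0.0562). Gusb fell without Jmjd8-KO replicate 2 (adjusted p = 0.0148). It did not pass when any other single mouse was left out (adjusted p of 0.148 to 0.242).

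Hexa, the alpha subunit of beta-hexosaminidase, was the most abundant of the group at 133 RPKM over all 6 mice. It was at 263, 218 and 275 CPM in Jmjd8-KO and 319, 319 and 328 CPM in the WT mice (log2 fold change -0.35, SE 0.0998, adjusted p = 0.127). Gla, the alpha-galactosidase lacking in Fabry disease, was at 19.1, 24.8 and 22.5 CPM against 30.6, 28.2 and 32.2 CPM. Both genes were lower in every Jmjd8-KO mouse, and Gla had -0.45 on the log2 scale (SE 0.119, adjusted p = 0.107). Without Jmjd8-KO replicate 2, Hexa and Gla fell (-0.26, adjusted p = 0.0244, and -0.54, adjusted p = 0.0272). Neither passed when any other mouse was left out, with adjusted p of 0.164 to 0.309 for Hexa and 0.212 to 0.295 for Gla.

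Gaa, the acid alpha-glucosidase that degrades glycogen in the lysosome, went the other way. It was at 217, 247 and 224 CPM in Jmjd8-KO and 197, 191 and 194 CPM in WT, with every Jmjd8-KO mouse above every WT mouse. The difference did not pass with all mice (log2 fold change 0.25, SE 0.0757, adjusted p = 0.149), and Gaa rose without Jmjd8-KO replicate 2 (0.19, adjusted p = 0.0422). Gaa did not pass when any other single mouse was left out (adjusted p of 0.221 to 0.355). The remaining 5 genes of the group, Glb1, Naglu, Man2b1, Neu1 and Sgsh, stayed within log2 fold changes of -0.06 to 0.03 and overlapped between the groups. For Naglu, a glucosaminidase of heparan sulfate, the 95% confidence interval was -0.16 to 0.19.

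The group of lipid hydrolases, activators and cholesterol export also held Grn and Ppt1. All 6 of its genes had lower mean levels in Jmjd8-KO fat, and 0 passed. Lipa, the acid lipase that frees fatty acids and cholesterol from lipids taken up into the lysosome, was at 266, 156 and 274 CPM in Jmjd8-KO and 421, 393 and 416 CPM in WT. Every Jmjd8-KO mouse was far below every WT mouse, and Jmjd8-KO replicate 2 was lowest. Lipa went from 409.9 ± 14.6 to 232 ± 66.3 CPM (1.77-fold lower in the fit, log2 fold change -0.82, SE 0.205) and missed the threshold with an adjusted p of 0.0969. Without Jmjd8-KO replicate 2 the difference was smaller and passed (-0.60, SE 0.0506, adjusted p = 0.00498). It did not pass when any other single mouse was left out. In GRCm38 Lipa spans chromosome 19, 34492318 to 34527474, minus strand.

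Npc2, the soluble protein that hands cholesterol to the membrane transporter Npc1, was at 1717, 1676 and 1680 CPM in Jmjd8-KO and 2030, 2045 and 2036 CPM in WT. The mice of each group lay close together and the groups were apart (log2 fold change -0.27, SE 0.067, adjusted p = 0.0969). Npc2 fell without Jmjd8-KO replicate 2 (-0.26, adjusted p = 0.0426) and did not pass when any other single mouse was left out. Npc1 had a log2 fold change of -0.15, and of 0.03 without Jmjd8-KO replicate 2.

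Psap, the precursor of the saposins that help hydrolases reach glycolipids, was second in level per gene length among the 34, at 1147 ± 242 RPKM in Jmjd8-KO and 1309 ± 69.5 RPKM in WT. It was at 2950, 4323 and 3132 CPM in Jmjd8-KO and 3871, 3601 and 3871 CPM in WT, so that Jmjd8-KO replicate 2 was highest and the other Jmjd8-KO mice lowest of all. The log2 fold change was -0.12 (adjusted p = 0.669), and -0.31 (adjusted p = 0.0543) without that mouse. Grn, the progranulin precursor, had no overlap between the groups (log2 fold change -0.26, SE 0.0732, adjusted p = 0.125). Ppt1, a thioesterase that removes palmitate from proteins, was at 131, 100.2 and 127 CPM against 124, 129 and 131 CPM, with a log2 fold change of -0.11.

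**Figure D3:**
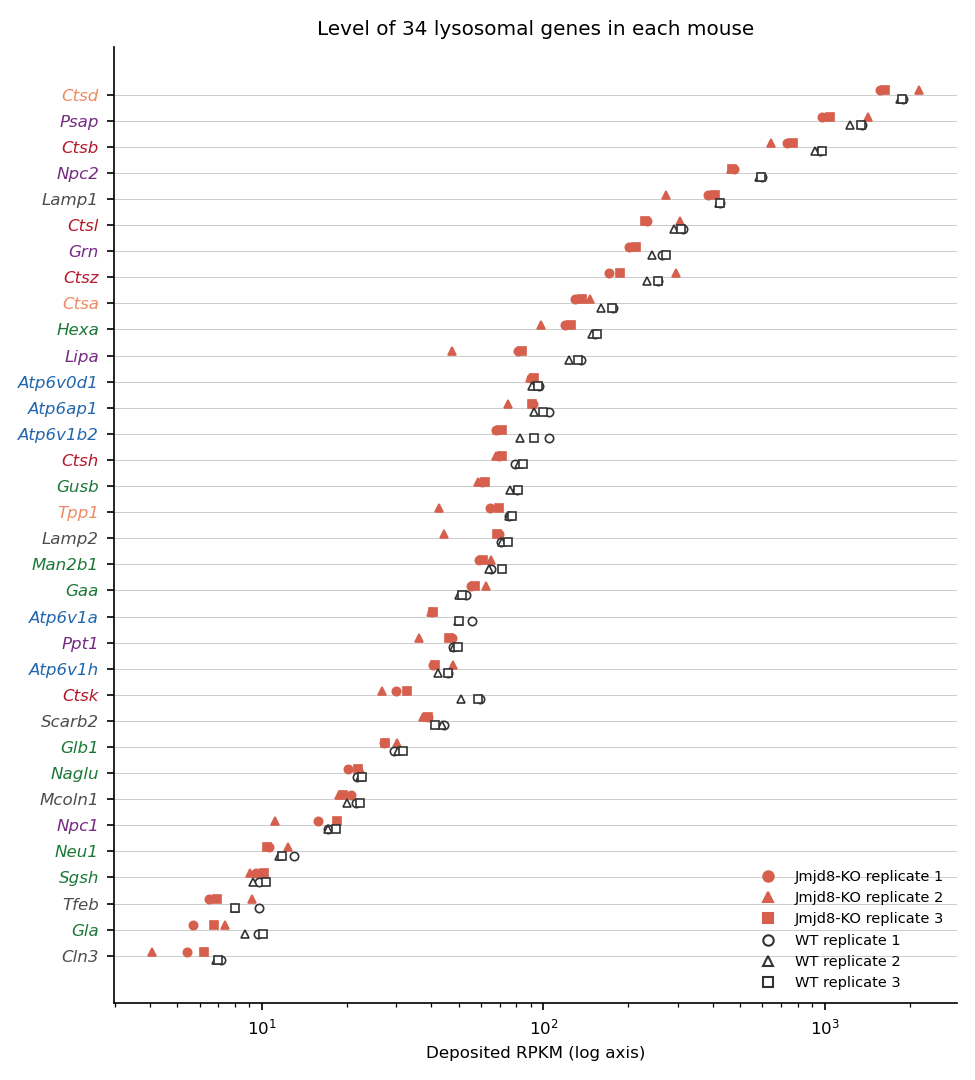
Deposited RPKM of the 34 genes on a log axis, ordered by mean level, with 1 symbol per mouse (filled for Jmjd8-KO, open for WT) and gene names coloured by role as in the plot of fold changes. Mean levels ran from 6.12 RPKM for Cln3 to 1832 RPKM for Ctsd.

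Levels per gene length spanned a wide range within the set. Ctsd, Psap and Ctsb held 26.3%, 17.6% and 11.98% of the summed RPKM of the 34 genes, while Cln3, Gla and Tfeb held between 0.0879% and 0.116% each. Of the 33 pairs of neighbours in this order, 15 had overlapping ranges of RPKM over the Jmjd8-KO mice and 12 over the WT mice. Grn and Ctsz, at 233.8 and 233.3 RPKM over all mice, and Atp6v0d1 and Atp6ap1, at 92.6 and 92.5 RPKM, are examples chosen after their values were seen. The coefficient of variation of the CPM between mice had a median of 9.55% over the 34 genes in Jmjd8-KO and 3.74% in WT. The Jmjd8-KO value includes replicate 2, which stood apart from the other Jmjd8-KO mice. The part of that library in the higher Jmjd8-KO spread was not tested.

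Of the membrane proteins and TFEB, 0 of 6 passed, and their log2 fold changes were between -0.36 and -0.06. Lamp1, a heavily glycosylated protein that lines the inner face of the lysosomal membrane, was the most abundant of them at 389 RPKM. It was at 949.9, 678 and 999.9 CPM in Jmjd8-KO and 990.5, 1007 and 1003 CPM in WT. Jmjd8-KO replicate 2 was far below the rest, and the log2 fold change went from -0.19 to -0.04 without it. Lamp2, its relative with a role in autophagy, moved in the same way, from -0.19 to -0.01.

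Cln3, a membrane protein mutated in juvenile Batten disease, was at 20.03, 15.1 and 22.9 CPM in Jmjd8-KO and 24.9, 24.6 and 24.7 CPM in WT. The groups did not overlap, and the difference did not pass (log2 fold change -0.36, SE 0.153, adjusted p = 0.264). Mcoln1, a calcium channel of the lysosome, was at 45.7, 41.8 and 42.7 CPM against 45.1, 43.0 and 47.2 CPM, and the 95% confidence interval of its log2 fold change was -0.24 to 0.13. Tfeb itself was at 20.4, 28.9 and 21.4 CPM against 28.8, 24.3 and 23.9 CPM. Its groups overlapped (log2 fold change -0.13, 95% confidence interval -0.49 to 0.24). Scarb2, the receptor that carries glucocerebrosidase to the lysosome, had a log2 fold change of -0.10.

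The vacuolar ATPase is a rotary pump with a V1 sector that splits ATP in the cytosol and a V0 sector that passes protons through the membrane. Of its 5 genes among the 34, 0 passed. The subunits of the catalytic ring, Atp6v1a and Atp6v1b2, were lower in every Jmjd8-KO mouse. Atp6v1a was at 175, 175 and 176 CPM in Jmjd8-KO and 230.3, 210.5 and 208 CPM in the WT mice (log2 fold change -0.30, SE 0.0706, adjusted p = 0.083). Atp6v1b2 was at 206, 208 and 215 CPM against 298, 242 and 269 CPM (-0.36, SE 0.0917, adjusted p = 0.1). WT replicate 1, the library with neuronal transcripts, was the highest for both, and without it the log2 fold changes were -0.265 and -0.29.

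The other parts of the pump among the 34 overlapped between the groups. Atp6v1h, a regulatory V1 subunit, was at 92.1, 109 and 93.6 CPM in Jmjd8-KO and 98.8, 93.6 and 99.5 CPM in the WT mice (log2 fold change 0.01). Its sign turned in 5 of 14 alternative settings. Atp6v0d1, the common form of the V0 subunit that couples the sectors, was at 161, 161 and 164 CPM against 162, 158 and 163 CPM, with a 95% confidence interval of -0.14 to 0.16. Atp6ap1, an accessory subunit, had a log2 fold change of -0.14.

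Of 17 further subunits tested, 2 fell and 0 rose, and both are a subunits of V0. Tcirg1, the a3 subunit of osteoclasts and other phagocytic cells, was at 65.7, 60.4 and 74.0 CPM in Jmjd8-KO and 106, 103 and 106 CPM in the WT mice (log2 fold change -0.66, SE 0.0891, adjusted p = 0.0268). Atp6v0a1, the a1 subunit, was at 344, 322 and 384 CPM against 508, 483 and 505 CPM (-0.51, SE 0.086, adjusted p = 0.0407). Both were lower in every Jmjd8-KO mouse. Both calls were lost when any 1 mouse other than Jmjd8-KO replicate 2 was left out, with adjusted p of 0.0638 to 0.15 for Tcirg1 and 0.0786 to 0.193 for Atp6v0a1.

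The next isoforms were named after their values were seen. Atp6v0a4, the a4 subunit known from kidney, was at 5.59, 5.43 and 4.47 CPM in the knockouts and 3.55, 4.06 and 4.08 CPM in WT, higher in every Jmjd8-KO mouse (0.41 on the log2 scale, adjusted p = 0.253). Atp6v0a2, the a2 subunit, had a log2 fold change of -0.04 (95% confidence interval -0.19 to 0.11). Atp6v0d2, the d isoform of osteoclasts and macrophages, was at 79.4, 39.2 and 86.2 CPM in Jmjd8-KO and 172, 151 and 179 CPM in WT (-1.30, SE 0.273, adjusted p = 0.0662), beside the 0.01 of its relative Atp6v0d1. As a ratio of RPKM within a library, which no library scaling can move, Atp6v0d2 over Atp6v0d1 was 0.318, 0.157 and 0.339 in the knockouts and 0.686, 0.616 and 0.71 in WT. Tcirg1 over Atp6v0a2 was 1.38, 1.31 and 1.56 against 2.23, 2.15 and 2.15. Neither ratio overlapped between the groups, and no test was made on pairs picked for their difference. Atp6v1g2, the nervous system form of the G subunit, was at 45.4 CPM in WT replicate 1 and at 5.81 to 8.25 CPM in the other 5 mice.

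**Figure D4:**
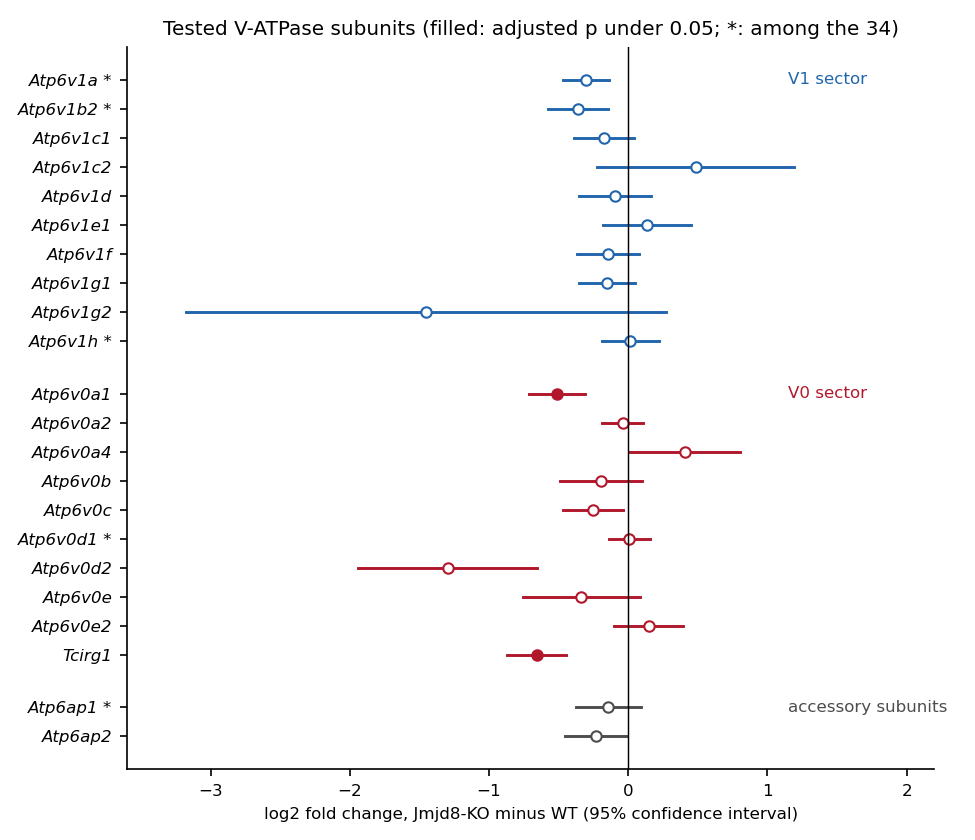
Log2 fold change (Jmjd8-KO minus WT) with its 95% confidence interval for the tested subunits of the vacuolar ATPase, by sector; filled points passed at an adjusted p under 0.05 and a star marks the 5 genes among the 34. Tcirg1 (-0.66) and Atp6v0a1 (-0.51) are filled, Atp6v0d2 lies at -1.30, and Atp6v0d1 at 0.01.

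Over 120 further lysosomal genes that were listed, 112 were tested, 7 fell, 0 rose and 105 did not pass, with a median log2 fold change of -0.07. That is 6.25% lower against the 1.33% of all tested genes. Among 8 other cathepsins, legumain and cystatins 2 fell. Ctss, cathepsin S of antigen-presenting cells, was at 350.5, 393 and 377 CPM in Jmjd8-KO and 598, 550.3 and 582 CPM in the WT mice (log2 fold change -0.63, SE 0.0781, adjusted p = 0.0217). Lgmn, the asparaginyl protease legumain that activates cathepsins, was at 258, 301 and 283 CPM against 403, 372 and 398 CPM (-0.48, SE 0.0842, adjusted p = 0.0421). The groups were apart for both.

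Among 22 other membrane proteins and transporters 2 fell. Gpnmb, a glycoprotein of lipid-laden macrophages, was at 315, 228 and 382 CPM in Jmjd8-KO and 669, 578 and 674 CPM in the WT mice (log2 fold change -1.05, SE 0.182, adjusted p = 0.0417). Cln8, a protein known from the endoplasmic reticulum that helps lysosomal enzymes leave it, was at 44.6, 38.7 and 44.8 CPM against 59.8, 56.2 and 60.4 CPM (-0.46, SE 0.0855, adjusted p = 0.0495). Among 12 other lipid enzymes, phosphatases and nucleases Pld3, an exonuclease of the lysosome, fell (-0.65, SE 0.111, adjusted p = 0.0414), and Dnase2a, the acid DNase, had -0.54 (adjusted p = 0.054). Each of these genes was lower in all 3 Jmjd8-KO mice than in any WT mouse. When any 1 mouse other than Jmjd8-KO replicate 2 was left out, 0 of the further genes passed. Without Jmjd8-KO replicate 2, 17 fell and 2 rose, Sort1 and Mtor, where 4.82% of all tested genes fell and 4.52% rose.

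The lists on sorting, regulation and further glycosidases held 0 genes that passed with all mice. Among 18 other glycosidases and sulfatases, Galns, a sulfatase of keratan sulfate, had -0.43 on the log2 scale (adjusted p = 0.203). Of 12 genes of sorting to the lysosome, Sort1, the receptor sortilin, was at 665, 591 and 642 CPM in Jmjd8-KO and 489.9, 513 and 533 CPM in WT (0.31, SE 0.0788, adjusted p = 0.104). Gga2, an adaptor of the same route, had 0.16. Of 23 genes of transcription and nutrient sensing, the kinase Mtor had 0.29 (adjusted p = 0.104) and Mitf, a relative of TFEB, -0.37 (adjusted p = 0.155). Sort1 and Mtor were higher in every Jmjd8-KO mouse than in any WT mouse, and Mitf lower.

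Markers of the cell types of fat differed between the same mice, against the 1.33% of all tested genes that fell and the 0.789% that rose. Of 14 macrophage markers 6 fell and 0 rose, and their summed level was 2719 to 3108 CPM in Jmjd8-KO and 3880 to 3996 CPM in WT. Csf1r, the receptor that keeps macrophages alive, was at 379 to 413 CPM and 384 to 424 CPM, with overlap. Of 9 markers of obesity-linked macrophages 5 fell and 0 rose, with a summed level of 12790 to 14510 CPM against 13900 to 14710 CPM that Lpl, also an adipocyte gene, took most of. Gpnmb and Atp6v0d2 belong to that list as well as to those above. Cd68 is both a macrophage marker here and 1 of the further lysosomal membrane proteins, so counts from these lists share it. Of 12 adipocyte markers 3 rose and 0 fell, with a summed level of 26290 to 29780 CPM against 22750 to 24540 CPM. Lep was the 1 adipocyte marker with a negative log2 fold change (-0.20, not passed), and it was lower in every Jmjd8-KO mouse than in any WT mouse. Of 7 mesothelial markers 2 rose, with 271.9 to 304.1 CPM against 133.5 to 186.7 CPM. Of 7 fibroblast and 5 endothelial markers 0 passed, at 5330 to 7973 CPM against 5428 to 5750 CPM and at 619.9 to 698.5 CPM against 664.1 to 701.3 CPM. All of these calls were lost when any 1 mouse other than Jmjd8-KO replicate 2 was left out, fits in which 0 to 17 genes passed in all. Without Jmjd8-KO replicate 2, 11 macrophage and 8 obesity-linked macrophage markers fell and 6 adipocyte and 6 mesothelial markers rose, where 4.82% of tested genes fell and 4.52% rose. These marker counts were added after seeing the data. None of these markers was at 0. The part of these cell types in the lower lysosomal values was not tested.

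**Figure D5:**
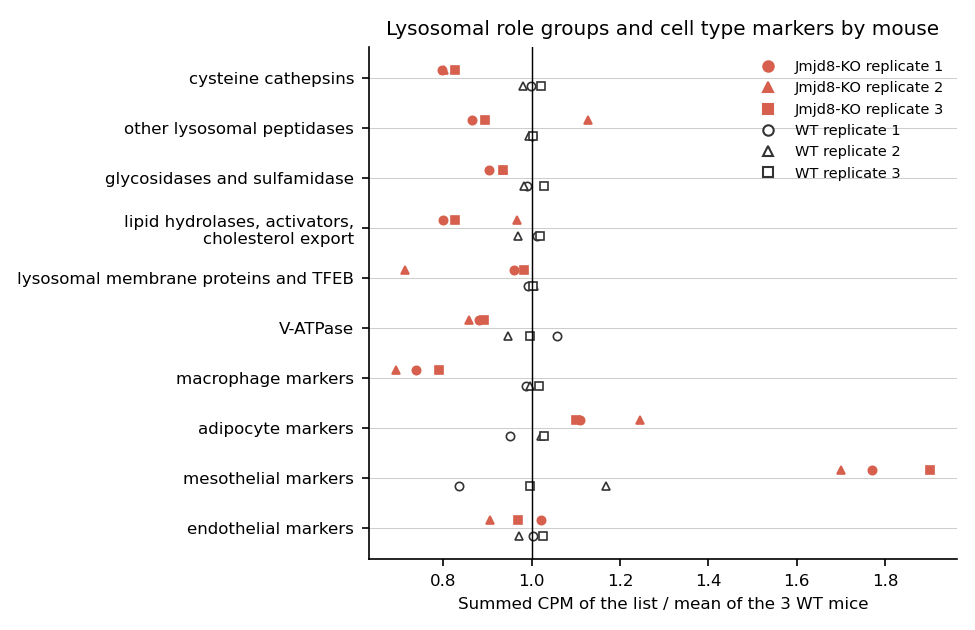
Summed CPM of each role group of the 34 genes and of 4 lists of cell type markers in each mouse, divided by the mean of the 3 WT mice (filled symbols for Jmjd8-KO, open for WT). Every role group except the 3 other peptidases, and also the macrophage markers, is lower in all 3 Jmjd8-KO mice than in any WT mouse. The membrane proteins are lowest in Jmjd8-KO replicate 2, while the group with the lipid hydrolases lies, in that mouse, just under the lowest WT mouse.

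Jmjd8-KO replicate 2 differed by over 1.2-fold from the mean of the other Jmjd8-KO mice in 14 genes, being higher in 5 and lower in 9, with log2 differences from -0.79 for Lipa to 0.73 for Ctsz. WT replicate 1 differed by over 1.2-fold from the mean of the other WT mice in 0 of the 34 genes. The difference of Jmjd8-KO replicate 2 moved with base composition. Across the 34 genes its Pearson correlation with the G and C content of the longest coding transcript was 0.472 (Spearman 0.429), and across 13413 tested genes 0.374 (0.366), where all points share the same 3 libraries and genes are not independent replicates. The 10 genes at 55% or more G and C had a median log2 difference of 0.13 in that mouse, and the 24 genes under it one of -0.04. The part of base composition in the group differences was not tested.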

How the data were processed

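Libraries from total RNA of flash-frozen epididymal fat of 3 Jmjd8-KO and 3 WT mice were made with a BGI kit and sequenced on a BGISEQ machine, per the labels' protocols. The submitters' processing notes name STAR, featureCounts and mm10, with no role or order. For their versions, annotation, strand setting and handling of reads shared by several genes, the entry is: not given in the sources used here. In the deposited table, raw counts and RPKM stand side by side for each gene and mouse, per the file headers. Where gene models overlap, reads of 14 of the 34 genes could be counted for another gene, for 12 of them one on the opposite strand (GENCODE M21, GRCm38, the assembly of mm10); Ctsk, Lipa, Gaa, Gla, Gusb and Npc2 share no exon bases. RPKM served for levels between genes, given by group for Ctsb, Ctsd and Psap, and for ratios. The RPKM were used as deposited, without the TMM factors. Differences between the groups were read from CPM and the fit.

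Counts of all genes were filtered with filterByExpr (minimum count 10), scaled by TMM and tested with edgeR 4.0.16 (R 4.3.3, quasi-likelihood test, genotype as the only term, Benjamini-Hochberg adjustment over 14322 genes, threshold 0.05). The same fit was also run on simulated counts with known folds. Those counts held no library that stood apart from its group, so that run does not bear on the dependence on single mice. Each SE came from dividing the fold change (log2) by the root of the F statistic. Alternatives used DESeq2 1.42.0, limma 3.58.1, other scalings and filters, a replicate block and left-out mice. Genes named with each mouse's value passed, or had the highest RPKM, smallest p or most extreme log2 fold change of their role group. Tfeb is given in addition. Wider lists name genes that passed and at least the 2 with the smallest p, except that 1 gene is not reported here. Members and lists were chosen with earlier results of these data known. Replicates are separate mice per the design text. G and C content came from GENCODE transcripts and promoters from RefSeq (GRCm38.p6).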

Additional observations from a re-analysis of the deposited data

How the results depend on the processing

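The count of lysosomal genes that passed depended on the setting, and the direction of Ctsk did not in any of the 14 alternatives. Of the 34 genes, 3 fell with library size alone as the scaling, 10 fell and 1 rose with DESeq2, 14 fell and 1 rose with limma-voom with quality weights, and 16 fell and 1 rose when Jmjd8-KO replicate 2 and WT replicate 1 were both left out. With 1 mouse left out, 0 to 11 fell and 0 to 1 rose. Of the wider lysosomal genes, 2 fell without a filter on low counts, 13 fell and 2 rose with DESeq2, 22 fell and 2 rose with limma-voom, 24 fell and 6 rose without both libraries, and 0 to 17 fell and 0 to 2 rose with 1 mouse left out. Over all genes 156 passed without a filter, 1039 with DESeq2, 2030 with limma-voom, 2833 without both libraries and 0 to 1351 with 1 mouse left out. The replicate numbers are not known to pair the mice and were not used as pairs in the main test. Same-numbered mice had correlations of -0.018, -0.029 and 0.008 in their deviations from the group means. None of the Jmjd8-KO mice correlated best with the WT mouse of its own number. With 3 mice per group and a library in each that stood apart, these correlations cannot show whether the mice were paired. With the replicate number as a block, 0 of the 34 genes and 0 of the wider genes fell and 5 genes passed in all; Ctsk then had an adjusted p of 0.0615. The counts with RLE size factors or a stricter filter stayed within 1.5 times those reported.

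Among the genes named with each mouse's values, the sign of the log2 fold change turned for 5. Ctsd had 0.0025 with RLE size factors and with DESeq2, and -0.1691 to 0.0765 over the fits that leave out 1 mouse. Atp6v1h had -0.0639 with library size alone, -0.057 with limma-voom, -0.0576 without both libraries, and -0.0673 to 0.0593 over the fits that leave out 1 mouse. Atp6v0d1 had -0.0678 with library size alone. Leaving out 1 mouse gave -0.01 to 0.0185 for Atp6v0d1, -0.1759 to 0.0061 for Ppt1 and -0.406 to 0.0291 for Ctsz. The cause was not tested. With 3 mice per group the spread between mice limits these comparisons, and counting error adds to it for the genes with few counts.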
